A study of Mus musculus with 25 samples.

Results

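The genes described here mark the tissue around the brain rather than the brain itself. They are 10 genes chosen by symbol, among 18820 named genes on the arrays: 8 genes of cranial mesenchyme, the loose connective tissue of the embryonic head (the forkhead factors Foxc1 and Foxc2, the basic helix-loop-helix factors Twist1 and Twist2, the homeodomain factors Prrx1 and Prrx2, and the receptors Pdgfra and Pdgfrb), and 2 genes of the neural crest (Foxd3 and Sox10). Each had exactly 1 transcript cluster (the set of probes for a gene) with that symbol alone. RNA came from the mammillary neuroepithelium of C57BL/6 mouse embryos at E10.5, hybridised to Affymetrix Mouse Gene 1.1 ST arrays, with 13 arrays from embryos carrying the altered Lhx5 allele (labelled KO) and 12 from wild-type embryos (WT). Per the methods the mutant embryos were homozygous for a floxed allele (Lhx5 fl/fl), with loxP sites in introns, all exons present and no Cre recombination, and the allele is described as a hypomorph. Samples are labelled as biological replicates, and whether an array held RNA of a single embryo or of several is not given in the sources used here. The p-values therefore measure the spread between these arrays.

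Cranial mesenchyme comes from mesoderm and from the neural crest, a cell population that leaves the dorsal neural tube and migrates into the head. Foxd3 and Sox10 mark crest cells early, and Sox10 later marks the glial and pigment cell lineages. Twist, Prrx, Foxc and PDGF receptor genes mark the mesenchyme itself, which gives rise to skull, connective tissue, meninges and the mural cells of vessels. Mesenchyme borders the ventral diencephalon directly, so a dissected piece of neuroepithelium can carry some of it. In RNA from whole tissue pieces, fewer cells of a type and less RNA per cell cannot be told apart.

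Both KO and WT arrays held clear signal for the 8 mesenchyme genes, on a log2 scale made by robust multiarray averaging (RMA). The mutant arrays were of 2 kinds. On 35550 probe sets the means of KO replicates 1 to 10 and of KO replicates 11 to 13 differed by a median of only 1.33e-06, so the 2 sets had been brought to a common mean, a step not described in the sources used here. In embryos of the same sex, Xist and 3 Y-linked genes differed from WT by 0.113 to 0.684 in size in KO replicates 11 to 13 and by 1.63 to 2.65 in KO replicates 1 to 10, which were therefore taken as the set that was moved. In KO replicates 11 to 13 this rests on 2 female arrays for Xist and 1 male array for the Y-linked genes (3 and 7 in KO replicates 1 to 10, 8 and 4 in WT). The fit carried a term for KO replicates 1 to 10. Each difference below is in effect that between 3 KO arrays (replicates 11 to 13) and 12 WT arrays, and KO replicates 1 to 10 inform only the spread. Array medians were 4.64 to 4.76 and correlations between arrays 0.985 to 0.997. Lhx5 itself stood at 7.82, 7.84 and 8.11 in KO replicates 11 to 13 and between 7.67 and 8.38 in WT (difference -0.04 ± 0.17, SE). Since the allele keeps all exons, this is no check of the labels.

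The sequences before the start of transcription are shown for members whose arrays are described together below, as background to what could bind there. The set of RefSeq promoter sequences used here covered 7 of the 10 members (GRCm38.p6), not Foxc2, Pdgfrb and Sox10. In the 250 bases before each start, 4 short motifs were searched on both strands: the E-box CANNTG bound by Twist proteins and their partners, TAATTA of homeodomain factors, GTAAACA of forkhead factors, and the TATA box TATAAA. Capitals mark a match. An E-box was found in 2 of the 7 windows, TAATTA in 1, TATAAA in 1 and GTAAACA in 0, and of 32851 promoters 66.2%, 4.84%, 12.4% and 3.17% held them in that order. No 2 matches overlapped. A match is only a match of letters. The first 3 windows are whole. They show a promoter with 29 CpG dinucleotides (Foxc1), one with a TATAAA beginning 126 bases before the start (Twist1) and one with the E-box CACGTG beginning 217 bases before it (Foxd3). The last 2 are the 30 bases around TAATTA, beginning 173 bases before the start used for Prrx1, and around the E-box CATCTG, 182 bases before that used for Pdgfra. For Prrx1, Prrx2 and Pdgfra the window lay inside the gene span given below, so it does not precede the whole gene.
Foxc1 (chr13:31806396-31806645, plus strand): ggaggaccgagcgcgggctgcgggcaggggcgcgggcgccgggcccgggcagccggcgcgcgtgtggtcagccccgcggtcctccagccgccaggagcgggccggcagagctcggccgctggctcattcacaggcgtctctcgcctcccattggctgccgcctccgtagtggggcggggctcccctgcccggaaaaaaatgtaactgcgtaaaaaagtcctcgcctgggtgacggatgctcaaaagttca
Twist1 (chr12:33957421-33957670, plus strand): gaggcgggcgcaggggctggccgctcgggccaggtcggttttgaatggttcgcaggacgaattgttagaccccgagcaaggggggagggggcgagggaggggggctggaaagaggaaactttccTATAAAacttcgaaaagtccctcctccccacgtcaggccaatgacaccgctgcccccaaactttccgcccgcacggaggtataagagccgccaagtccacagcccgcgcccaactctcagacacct
Foxd3 (chr4:99656049-99656298, plus strand): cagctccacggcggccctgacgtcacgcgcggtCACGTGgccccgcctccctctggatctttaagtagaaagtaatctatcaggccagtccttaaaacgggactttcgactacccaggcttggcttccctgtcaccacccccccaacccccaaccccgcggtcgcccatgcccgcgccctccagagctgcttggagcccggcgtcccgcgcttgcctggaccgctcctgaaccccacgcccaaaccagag
Prrx1 (chr1:163313806-163313835, minus strand): gcaagggaatgaTAATTAgacctttatttt
Pdgfra (chr5:75152057-75152086, plus strand): cccaccccacccCATCTGgtttgctccccc
The number of CpG dinucleotides in the window was 29 for Foxc1, 23 for Twist2, 21 for Prrx2, 21 for Foxd3 and 18 for Twist1, but 4 for Prrx1 and 4 for Pdgfra, against a median of 6 over all promoters. The windows thus differ in these features although 6 of these 7 belong to the mesenchyme set. Since those of Prrx1, Prrx2 and Pdgfra lie inside the gene, this does not compare the sequence upstream of each whole gene.

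The first question was whether the mutant tissue held more or less of these transcripts. None of the 10 members passed the test (adjusted p below 0.05, limma, Benjamini-Hochberg over 28940 clusters, two-sided), where 0.0242% of all clusters passed (7 clusters). The differences of all 8 mesenchyme genes were above 0, from 0.04 (Prrx1) to 0.45 (Foxc2) on the log2 scale, with a median of 0.15. Over all named genes the median difference was 0.00, and 49% of them lay above 0. Among the 10193 named genes with a mean log2 value of at least 5, the median was -0.03 and 38.6% lay above 0. The crest genes had differences of -0.01 (Foxd3) and 0.06 (Sox10). In 0 members did KO replicates 11 to 13 lie all above or all below every WT array. They lay all above in only 0.536% of clusters, so a count of 0 among 10 members says little.

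**Figure D1:**
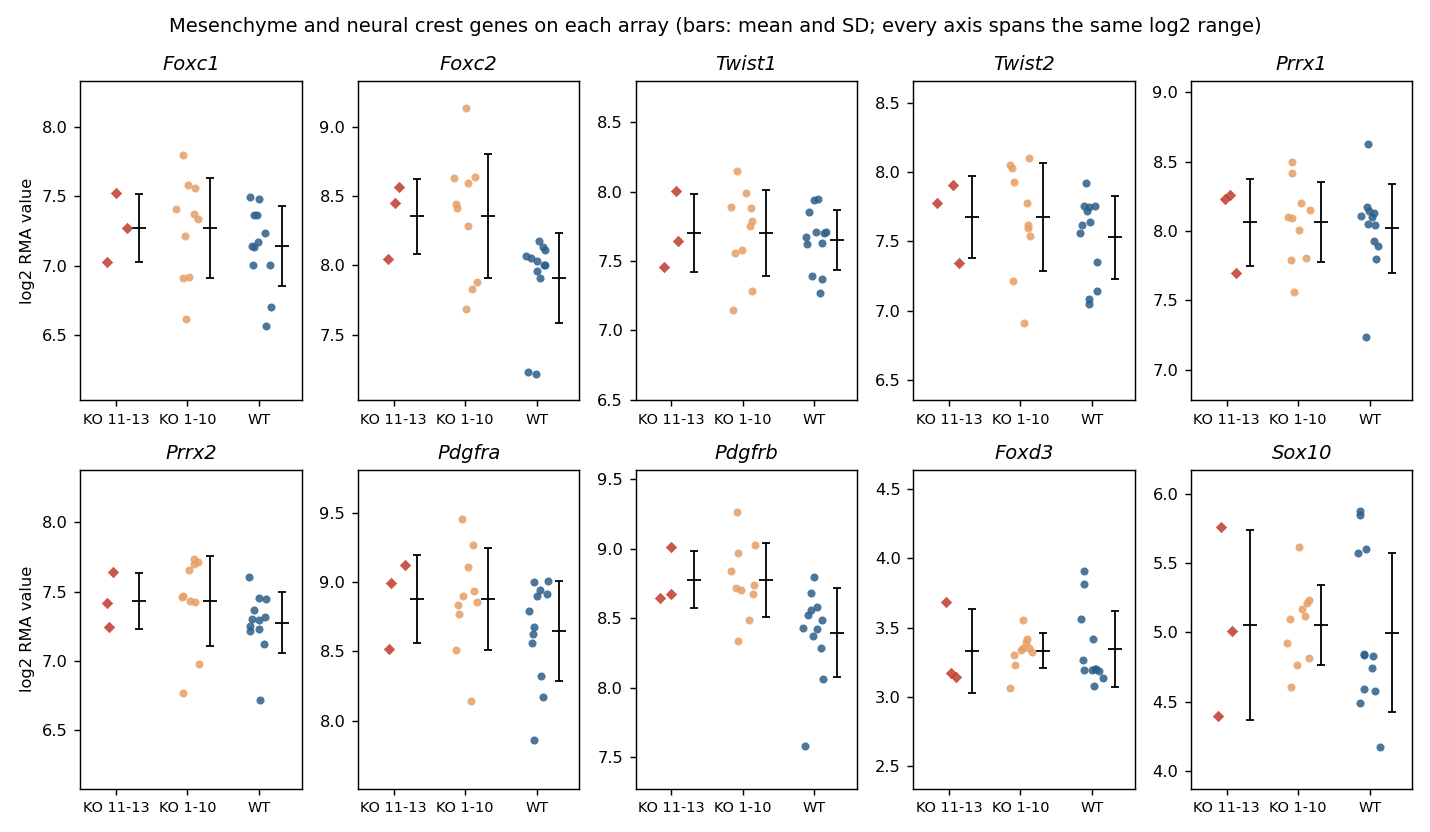
Log2 RMA value (y axis) of each of the 10 genes on each array, in KO replicates 11 to 13 (red diamonds), KO replicates 1 to 10 (orange) and WT (blue), with mean and SD beside the points; every panel spans the same log2 range. Foxc2 is highest relative to WT, with 2 of 3 red diamonds above all WT points, and 2 low WT arrays recur in the mesenchyme panels.

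Foxc1 and Foxc2 encode forkhead transcription factors needed for somites, vessels and the meninges of the brain. Foxc2 (chromosome 8, 121116171 to 121118895, GRCm38.p6) stood at 8.57, 8.45 and 8.05 in KO replicates 11, 12 and 13, while WT arrays ran from 7.22 through a median of 8.02 to 8.17. The first 2 KO arrays lay above all WT arrays and the third inside their range. The difference was 0.45 ± 0.23 (SE), or 1.36-fold with a 95% interval of 0.986 to 1.88, with an unadjusted p of 0.06 and an adjusted p of 0.504 in limma. The exact permutation test over all ways to pick 3 of the 15 arrays gave p = 0.0396, two-sided, the smallest it allows being 0.0022. Foxc1 (chromosome 13, 31806646 to 31810635), its close relative, stood at 7.52, 7.27 and 7.03 in KO replicates 11 to 13, and between 6.56 and 7.50 in WT (median 7.16). Only KO replicate 11 exceeded the highest WT array, by 0.02, and the difference was 0.13 ± 0.19 (adjusted p = 0.86 in limma).

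Twist1 and Twist2 encode basic helix-loop-helix factors of mesenchyme, and loss of Twist1 in the mouse disturbs closure of the cranial neural tube. Twist1 (chromosome 12, 33957671 to 33959831) stood at 8.0, 7.65 and 7.45 in KO replicates 11 to 13, and ran from 7.27 through 7.69 to 7.95 in WT. Twist2 (chromosome 1, 91801461 to 91848034) stood at 7.78, 7.91 and 7.35 in the same KO arrays, against 7.05, 7.63 and 7.92 (lowest, median and highest) in WT. For both genes KO and WT overlapped, with KO replicate 13 lowest of the 3 KO arrays and inside the WT range. The differences were 0.05 ± 0.16 for Twist1 and 0.15 ± 0.20 for Twist2, with 95% intervals of -0.28 to 0.38 and -0.27 to 0.57. The difference of Twist1 was -0.10 without KO replicate 11.

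Prrx1 and Prrx2 encode homeodomain factors of limb and craniofacial mesenchyme that act partly in place of each other in the mouse. Prrx1 (chromosome 1, 163245119 to 163315145) stood at 8.26, 8.23 and 7.70 in KO replicates 11 to 13, within the WT range of 7.23 to 8.63 (median 8.07). Prrx2 (chromosome 2, 30845064 to 30881251) stood at 7.64, 7.42 and 7.24 in the KO arrays, and ran from 6.72 to 7.60 in WT (median 7.30). The groups overlapped for both. The differences were 0.04 ± 0.19 for Prrx1, the smallest of the mesenchyme genes, and 0.16 ± 0.16 for Prrx2. That of Prrx1 turned negative without KO replicate 11 (-0.05), without KO replicate 12 (-0.04) or without WT replicate 11 (-0.03).

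Pdgfra and Pdgfrb encode the receptor tyrosine kinases for platelet-derived growth factors, Pdgfra on mesenchyme and oligodendrocyte precursors and Pdgfrb on mesenchyme and on the pericytes and smooth muscle of vessels. Pdgfrb (chromosome 18, 61045127 to 61085067) stood at 9.01, 8.64 and 8.67 in KO replicates 11 to 13, and ran from 7.58 through 8.46 to 8.79 in WT. Only KO replicate 11 lay above all WT arrays, and all 3 lay above the WT median. The difference was 0.38 ± 0.18, or 1.30-fold (95% interval 1.01 to 1.67). It was the only member with an unadjusted p below 0.05 (p = 0.0403 in limma, adjusted p = 0.454, exact permutation p = 0.0791), where 6.20% of all clusters had such a p and were higher in KO. Pdgfra (chromosome 5, 75151322 to 75198206) stood at 9.13, 8.99 and 8.52 in the KO arrays, against 7.86, 8.74 and 9.01 (lowest, median and highest) in WT. KO replicate 11 lay above all WT arrays and replicate 13 below the WT median, and the difference was 0.23 ± 0.22 (adjusted p = 0.772 in limma). Pdgfra is the only member on the chromosome of Lhx5, 45233680 bases away from it.

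With genotype as the only term, 2 members passed, Foxc2 (adjusted p = 0.0269 in limma) and Pdgfrb (adjusted p = 0.0162), where 9.68% of all clusters passed and were higher in KO. That fit counts KO replicates 1 to 10, whose mean was set, as further evidence for the same difference, and its standard errors were smaller by a median factor of 1.65. The mesenchyme median of 0.15 was 0.08 without KO replicate 11, 0.29 without KO replicate 13, and 0.07 without WT replicates 1 and 11.

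**Figure D2:**
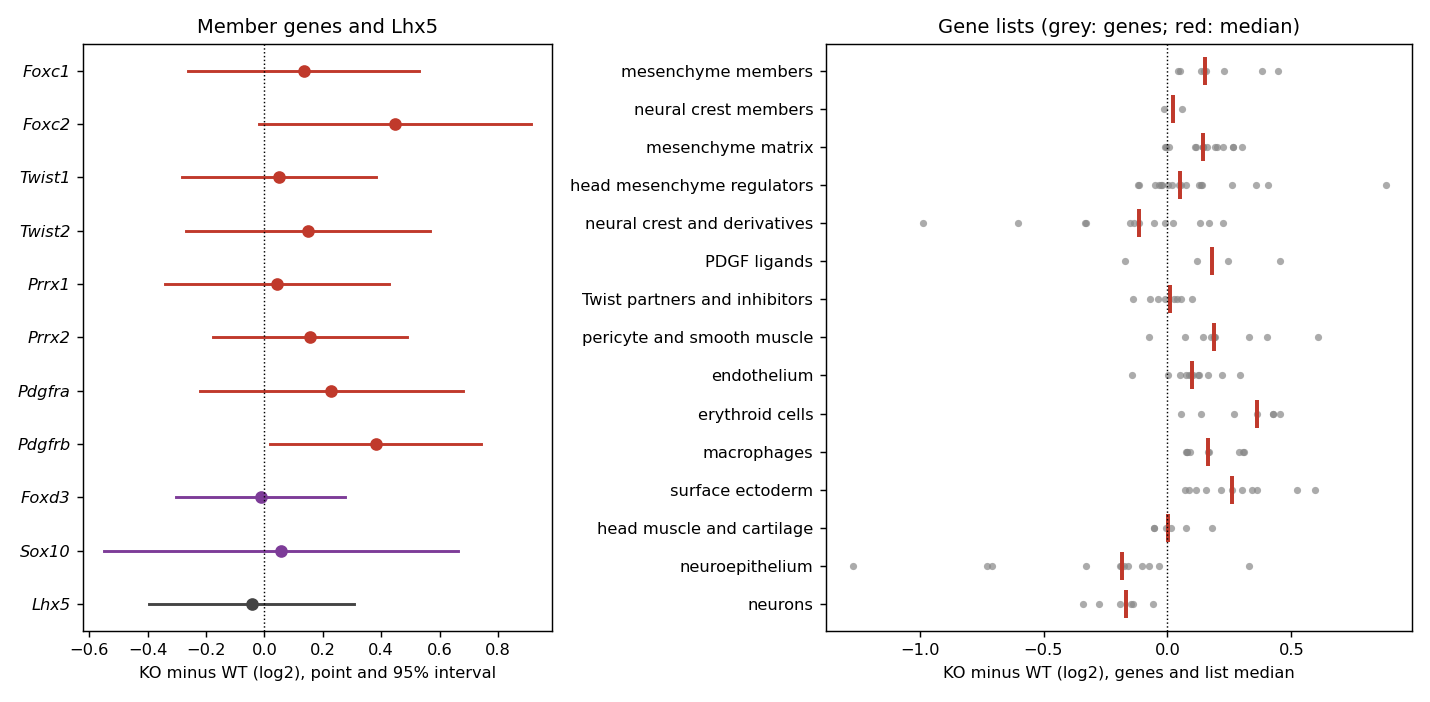
Left, KO minus WT difference (x axis, log2) of each member and of Lhx5, with the 95% interval of the fit carrying the term for KO replicates 1 to 10. Right, the same difference for the genes of each list (grey) with the list median (red). All 8 mesenchyme members lie above 0, by a median of 0.15, with intervals that reach 0 for all but Pdgfrb, and the neuroepithelium list lies mostly below 0 (median -0.18).

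Foxd3 and Sox10 are the crest genes. Foxd3 encodes a forkhead factor of early crest, and Sox10 an HMG-box factor of migrating crest, glia and pigment cells. Sox10 (chromosome 15, 79154913 to 79164490) stood at 5.01, 5.76 and 4.40 in KO replicates 11 to 13, and ran from 4.17 to 5.87 in WT (median 4.83). Foxd3 (chromosome 4, 99656299 to 99658671) stood at 3.17, 3.68 and 3.15 in the KO arrays, and ran from 3.08 to 3.91 in WT (median 3.20). All Foxd3 values lay under the median of all tested clusters (4.69), so its changes between arrays are measured near the floor of the array. The intervals of the genotype difference ran from -0.55 to 0.66 for Sox10 and from -0.30 to 0.28 for Foxd3.

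In WT the 2 crest genes were high on the same arrays. There, Sox10 formed 2 clusters, 8 arrays from 4.17 to 4.85 and 4 arrays (replicates 2, 4, 5 and 10) from 5.57 to 5.87. Those 4 arrays also held the 4 highest Foxd3 values of WT, 3.42 to 3.91, against 3.08 to 3.27 in the other 8. They likewise held the 4 highest WT values of Erbb3, the neuregulin receptor subunit of crest and Schwann cell precursors, at 5.63 to 6.06, against 3.90 to 5.22 in the other 8. Within the 8 arrays of lower Sox10, r with Sox10 was 0.80 for Erbb3, which thus followed Sox10 there too. It was 0.13 for Foxd3, whose values there lay near the floor of the array. For Foxd3 an r over all 12 WT arrays thus mainly sets these clusters against each other. That r is left blank for Foxd3 with Sox10 in the plot of correlations, and enters only the medians over pairs. KO replicate 12 was highest of KO replicates 11 to 13 for all 3 genes (Erbb3 5.34, 6.09 and 4.58 in replicates 11, 12 and 13). Among KO replicates 1 to 10, replicate 4 was highest for Sox10 (5.62) and Foxd3 (3.55), and replicate 10 for Erbb3 (6.23). In that set r between Foxd3 and Sox10 was 0.246 and rho -0.0424 (adjusted permutation p 0.53 and 0.92), and r was -0.238 without the 2 farthest arrays. The arrays split by Sox10 were picked after its values were seen, and no difference between them was tested.

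Of the wider crest list, 13 of 16 genes were measured, 0 passed in either direction, and the median difference was -0.12 (4 above and 9 below 0). Its 2 genes with the smallest p were Dct, a melanin pathway enzyme (-0.99 ± 0.55, adjusted p = 0.559 in limma), and Sox8 (0.13 ± 0.12). Dct stood at 4.01, 4.01 and 4.15 in KO replicates 11 to 13 and from 3.90 to 6.59 in WT. Dct and Mitf also mark the pigment epithelium of the eye, and Sox9, Pax3, Pax7 and Crabp1 are used in the neural tube as well, so the list does not stand for crest alone.

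The ligands of the PDGF receptors were asked next. Pdgfa, the main ligand of PDGFRA, had the largest difference of the 4 ligands (0.45 ± 0.18). It stood at 7.46, 7.84 and 7.40 in KO replicates 11 to 13, and between 6.79 and 7.58 in WT (median 7.06). KO replicate 12 exceeded all WT arrays and all 3 exceeded the WT median, with an unadjusted p of 0.0196, an adjusted p of 0.364 in limma and an exact permutation p of 0.011. Pdgfc, the second in order of p, had a difference of 0.24 ± 0.16, and the list median was 0.18 (3 of 4 above 0, 0 passing). The binding partners and inhibitors of Twist proteins differed little. Their 8 genes had a median of 0.01 with 0 passing, and the smallest p belonged to Hand2 (-0.14 ± 0.09) and Tcf3, the E protein that pairs with Twist1 (0.06 ± 0.05).

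Other mesenchyme genes were then compared. Of 15 measured genes of the mesenchymal matrix, 13 had a difference above 0 with a median of 0.14, and 0 passed. The smallest p belonged to Lum, a collagen-binding proteoglycan (0.26 ± 0.16), and Fstl1 (0.14 ± 0.09). Of 18 regulators of head mesenchyme, 12 lay above 0 with a median of 0.05, and 0 passed. Foxf2, a forkhead factor of mesenchyme and brain pericytes, had the smallest p of these (0.36 ± 0.19, adjusted p = 0.546 in limma). Barx1, a homeodomain factor of the branchial arches, followed at 0.88 ± 0.51, with 5.32, 5.24 and 3.73 in KO replicates 11 to 13 and 3.38 to 6.05 in WT. Of 10 pericyte and smooth muscle genes 9 lay above 0 (median 0.19, 0 passing), with Abcc9, a channel subunit of pericytes, at 0.33 ± 0.16 and Myh11, a smooth muscle myosin, at 0.14 ± 0.07.

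Genes of further cell types were compared in the same fit. The median difference was 0.10 for endothelium (11 of 12 above 0; Cdh5 0.29 ± 0.14, Pecam1 0.22 ± 0.12) and 0.36 for erythroid cells (7 of 7; Hbb-bh1 0.27 ± 0.24, Slc4a1 0.45 ± 0.41). It was 0.17 for macrophages (9 of 9; C1qa 0.31 ± 0.13, Cx3cr1 0.31 ± 0.26) and 0.26 for surface ectoderm (11 of 11; Grhl3 0.36 ± 0.16, Esrp1 0.60 ± 0.27). It was 0.00 for head muscle and cartilage (3 of 6; Matn1 0.07 ± 0.08, Myf5 0.18 ± 0.34). The lists of the tissue that was dissected lay on the other side of 0. Neuroepithelium had a median of -0.18 (11 of 12 below 0; Rax -1.27 ± 0.39, Sox1 -0.71 ± 0.32) and neurons one of -0.17 (6 of 6 below 0; Map2 -0.28 ± 0.24, Nhlh2 -0.34 ± 0.30). The paper lists Rax and Sox1 among genes lower in the mutant, and Esrp1 among those higher. Its list was made from these same arrays, so it is no independent support. The neuroepithelium differences ran up to 0.33 (Sim1), with Nes (-0.03), Fabp7 (-0.07) and Cdh2 (-0.10) nearest below 0. Of named genes with a mean of at least 5, 38.6% lay above 0. The amount of neuroepithelium was not tested. No gene of any of these lists passed the test.

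Summed on the linear scale, the mesenchyme members held 1867 to 2619 units in KO replicates 11 to 13, 1506 to 3020 in KO replicates 1 to 10 and 1234 to 2361 in WT. The matrix list summed to 5376 to 6373, 4510 to 7079 and 3598 to 6465 in the same order of sets, endothelium to 1981 to 2534, 1868 to 2550 and 1230 to 2188, and surface ectoderm to 842 to 1351, 646 to 1589 and 575 to 1120. Neuroepithelium summed to 8454 to 10564, 6697 to 10790 and 8769 to 11651. The ranges of the sets overlapped for every one of these lists. The neuroepithelial marker Sox1 stood at 7.24, 7.28 and 7.27 in KO replicates 11 to 13 and at 6.83 or more on all WT arrays, and Fabp7, a radial glia gene, had a mean of 11.97 over all arrays, which shows neural tissue in general. Of genes used in the region, Foxb1, a forkhead gene of the mammillary body, stood at 6.41, 6.51 and 6.80 in KO replicates 11 to 13 and between 6.36 and 7.22 in WT. Nkx2-1, a homeobox gene of the ventral hypothalamus, stood at 7.60, 7.35 and 7.53 in the KO arrays and between 6.90 and 8.33 in WT. Sim1, a transcription factor gene of the hypothalamus, stood at 8.26, 8.70 and 8.75 in the KO arrays and between 7.42 and 8.75 in WT. No value on these arrays is 0, and 6 of the 18 mesenchyme regulators had a mean under 5. The part of the other cell types in the differences of the mesenchyme genes was not tested.

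The second question was whether the members move together from array to array within a genotype, which the genotype difference does not enter. The mean of the 8 mesenchyme genes on each array, each relative to its WT mean, was 0.42, 0.25 and -0.07 in KO replicates 11, 12 and 13. In KO replicates 1 to 10 it ran from -0.41 to 0.61 (median 0.27), with replicate 3 lowest and replicate 10 highest. In WT it ran from -0.60 to 0.27 (median 0.08). WT replicates 11 (-0.60) and 1 (-0.39) stood apart below the other 10, which lay between -0.03 and 0.27, and the lowest WT value of every mesenchyme gene was on one or the other. WT replicate 1 was the lowest for Foxc1, Foxc2 and Twist1, and WT replicate 11 for Twist2, Prrx1, Prrx2, Pdgfra and Pdgfrb.

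**Figure D3:**
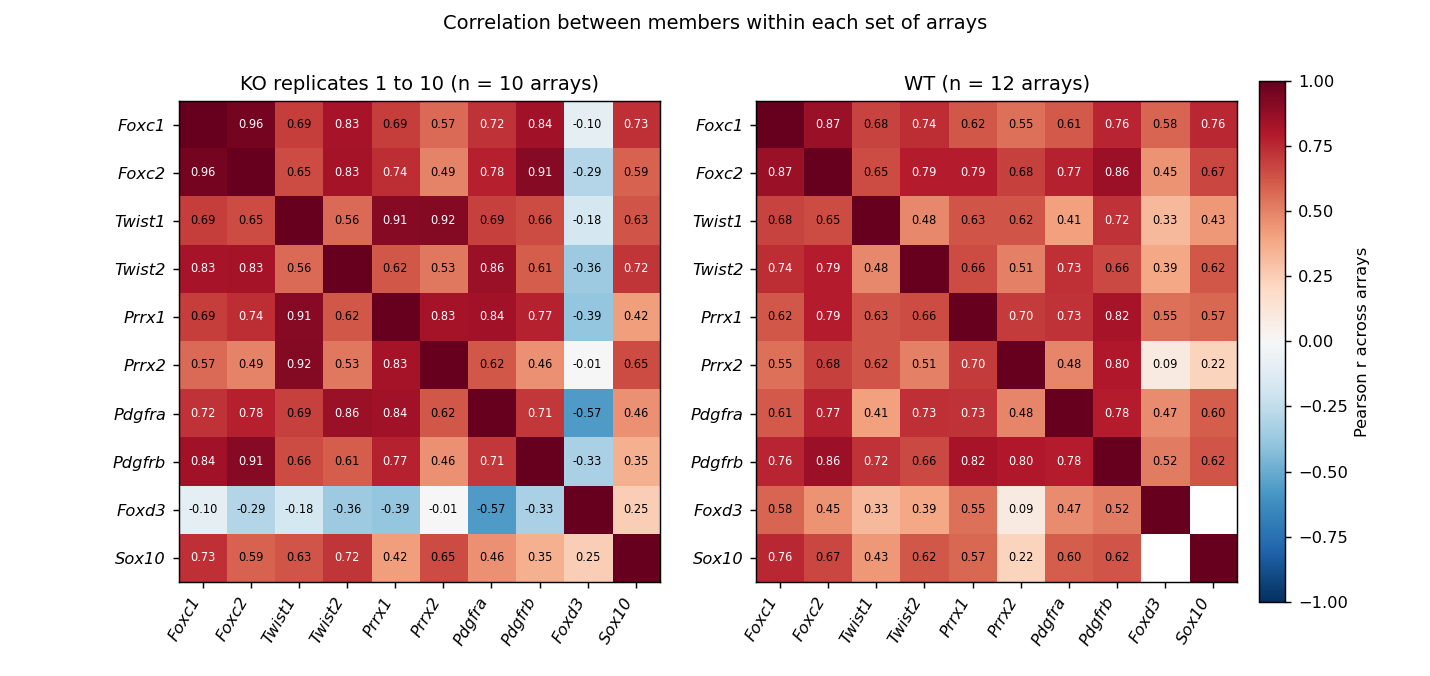
Pearson r across arrays (colour and number) for each pair of the 10 genes, within KO replicates 1 to 10 (left, n = 10) and within WT (right, n = 12). The 8 mesenchyme genes form a block of positive r, with a median of 0.715 on the left and 0.692 on the right, while Foxd3 has negative r with all of them on the left. Foxd3 with Sox10 is left blank in WT, where Sox10 forms 2 clusters of arrays.

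Within KO replicates 1 to 10 the 28 pairs of mesenchyme genes had a median Pearson r of 0.715 (0.456 to 0.957), and within WT one of 0.692 (0.413 to 0.866). Over all pairs of named genes with a mean of at least 5 the medians were 0.024 and 0.044 in the same order. An r of 0.5 or more was found for 26 of the 28 pairs in KO replicates 1 to 10 and 25 in WT, as compared with 12.5% and 11.4% of all named pairs. By permutation (100000 resamples, two-sided, adjusted over 90 tests), 13 of the 28 pairs passed at 0.05 in KO replicates 1 to 10 and 16 in WT. By Spearman's rho 11 and 4 passed.

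Much of the coherence in WT rested on the 2 low arrays. Without the 2 arrays farthest from the median mesenchyme mean (KO replicates 3 and 10; WT replicates 1 and 11), the median r of the 28 pairs was 0.495 in the 8 remaining KO arrays and 0.282 in the 10 remaining WT arrays. All named pairs then had medians of 0.031 and 0.024. Of the 28 pairs, 14 still had an r of 0.5 or more in the KO arrays (15.4% of all named pairs had one) and 4 in the WT arrays (14.3%, against 11.6% of all named pairs). The lowest r among the WT pairs was then -0.528.

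Foxc1 with Foxc2 had the highest r of the mesenchyme pairs in both sets. In KO replicates 1 to 10 r was 0.957 and rho 0.903 (permutation p, adjusted over 90 tests, 0.0036 and 0.02), and r was 0.925 without the 2 arrays farthest from the median of Foxc1. In WT r was 0.866 and rho 0.727 (adjusted permutation p 0.0096 and 0.049), and r was 0.540 without the 2 farthest arrays. For Foxc1 those were WT replicates 1 and 11, without which the highest r of the 28 WT pairs was 0.573. Over all arrays Twist1 went with Prrx2 (r = 0.920 in KO replicates 1 to 10, 0.625 in WT) and with Prrx1 (0.910 and 0.632). In WT neither pair passed by permutation (adjusted p = 0.056 for both, and by rho 0.092 and 0.23). Twist2 went with Pdgfra (0.865 and 0.734). Foxc2 went with Pdgfrb at 0.910 in KO replicates 1 to 10 and 0.859 in WT, where it was 0.399 without the 2 farthest arrays. The Foxc, Twist and Prrx genes are each pairs of close relatives, and whether probes of one also bind transcripts of the other was not examined.

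Each mesenchyme gene was also set against the mean of the other 7. The r was lowest for Prrx2 in KO replicates 1 to 10 (0.694) and Twist1 in WT (0.683), and highest for Foxc2 in both sets (0.886 and 0.923). Sox10 followed the mesenchyme mean at 0.663 in KO replicates 1 to 10 and 0.677 in WT, and Foxd3 at -0.321 and 0.512. In WT both crest values carry the 2 clusters of Sox10 described above. Over the 16 pairs of a mesenchyme with a crest gene, the median r was 0.173 in KO replicates 1 to 10 and 0.532 in WT. These values describe arrays that share a platform and a normalisation, and the difference between the 2 sets was not tested.

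Foxc2, taken relative to the mean of the other 7 on the same array, was 0.28 higher in KO replicates 11 to 13 than in WT. The corresponding value was 0.21 for Pdgfrb, and -0.17 for Twist1 and -0.18 for Prrx1. This view was chosen after the values were seen and carries no test.

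**Figure D4:**
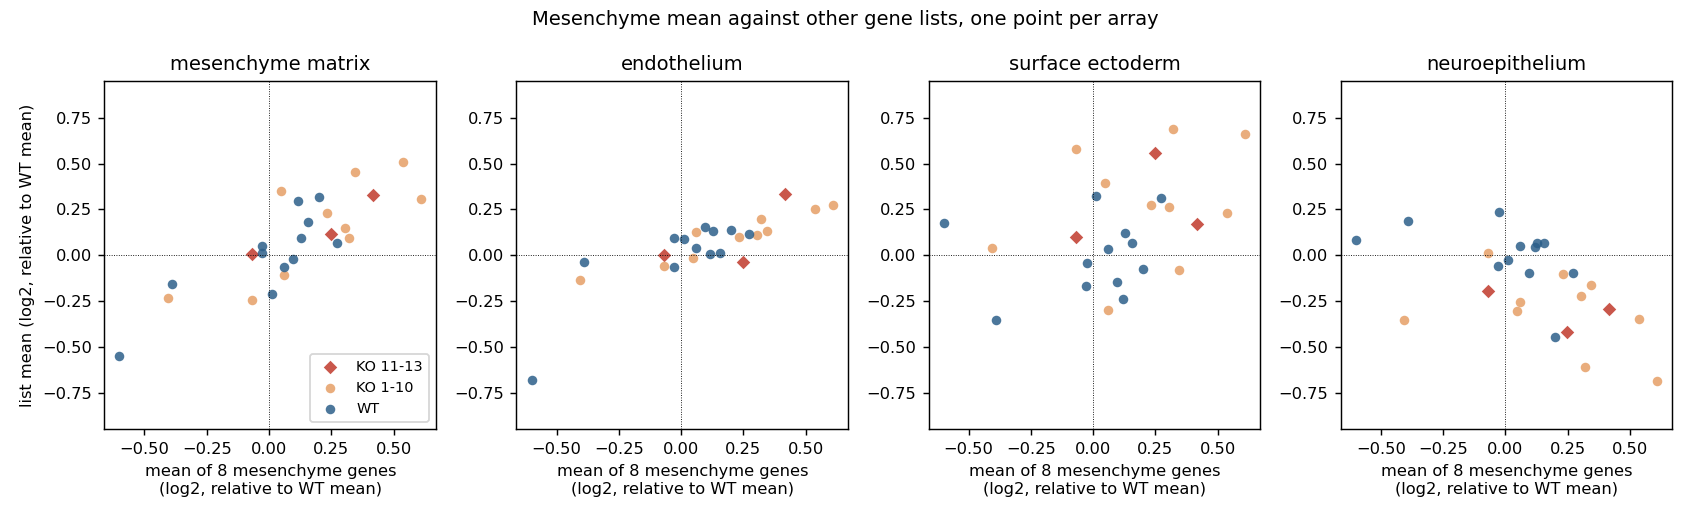
Mean of the 8 mesenchyme genes on each array (x axis, log2 relative to the WT mean) against the mean of 4 other gene lists (y axis, same scale), for KO replicates 11 to 13 (red diamonds), KO replicates 1 to 10 (orange) and WT (blue). Matrix and endothelium go up with the mesenchyme mean, with r of 0.824 and 0.831 in WT, surface ectoderm has an r of 0.163, and the 2 lowest WT points on the left are replicates 11 and 1.

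Lists that the choice of members did not use were set against the mesenchyme mean as a description, first for KO replicates 1 to 10 (n = 10) and then for WT (n = 12). The r of the list mean was 0.776 and 0.824 for the matrix genes, 0.882 and 0.870 for the head mesenchyme regulators, 0.944 and 0.831 for endothelium, and 0.720 and 0.793 for pericyte and smooth muscle genes. Without the 2 farthest arrays of each set it was 0.733 and 0.531 for matrix, 0.693 and 0.521 for head mesenchyme regulators, 0.882 and 0.411 for endothelium, and 0.616 and 0.345 for pericyte and smooth muscle genes. Macrophage genes followed at 0.696 and 0.650 (0.399 and 0.353 without those arrays), PDGF ligands at 0.440 and 0.800 (0.157 and 0.587), and head muscle and cartilage at 0.605 and 0.460 (0.389 and 0.117). These 7 lists thus stayed above 0 either way, at lower values without the farthest arrays. For other lists the direction depended on the set or on those arrays. Erythroid genes had 0.558 and -0.341 (0.0167 and -0.246 without them), the wider crest list -0.667 and 0.416 (-0.510 and -0.384), neurons -0.326 and 0.433 (0.0506 and 0.050) and surface ectoderm 0.301 and 0.163 (-0.0778 and 0.278). Twist partners lay below 0 throughout (-0.326 and -0.107, then -0.0869 and -0.460), as did neuroepithelium (-0.409 and -0.466, then -0.463 and -0.494). The array median also went with the mesenchyme mean (0.484 and 0.606), and its part in these values was not tested.

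Among 10179 named genes, the 10 most like the mesenchyme mean, by the lower of the 2 within-set r, were Pcolce, Scarf2, Adgra2, Mov10, Nfatc4, Nab2, Crispld1, Ddr2, Fblim1 and Col26a1. Their likeness ran from 0.941 (Pcolce) to 0.895 (Col26a1). Pcolce encodes an enhancer of procollagen processing, Ddr2 a collagen receptor and Adgra2 a receptor of endothelium and mesenchyme. All 10 had a difference above 0 between KO and WT, with a median of 0.19, and 0 passed. The mesenchyme mean was itself higher in KO replicates 11 to 13 than in WT, so the shared sign follows in part from how these genes were picked. Col26a1, a collagen gene, had the largest difference. It stood at 9.99, 10.18 and 9.49 in KO replicates 11 to 13 and between 8.11 and 9.44 in WT. All 3 KO arrays lay above every WT array, as they did for 0.536% of all clusters, with a difference of 0.87 ± 0.28 (adjusted p = 0.262 in limma). The exact permutation p was 0.0022, the smallest the test can give. Pcolce stood at 9.94, 9.82 and 9.55 in the KO arrays and between 8.70 and 9.83 in WT, with a difference of 0.32 ± 0.19.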

How the data were processed

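The authors deposited log2 values made by RMA of the probe intensities, for 35556 probe sets on 25 arrays (the submitters' processing notes name affy, R 2.7.0 and Affymetrix Expression Console 1.0). On 10 of the deposited arrays 1 to 3 values each lay far outside the RMA range, so those columns, other than in these cells, hold the same log2 values. All 14 cells above 14 over the arrays were set missing, none of them in a member. The 6616 probe sets with an identifier below the lowest annotated one were left out, leaving 28940 clusters. Of these, 21218 carried a single symbol, 1881 several and 5841 none, and all were tested. By Entrez number, 21185 were matched to GRCm38.p6. The brightest cluster stood for a gene.

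Clusters were fitted in limma 3.58.1 (R 4.3.3) on all 25 arrays with genotype and the term for KO replicates 1 to 10. The fit was also run on simulated data with independent noise in each cluster. That setting lacks the covariation between genes described above, and its outcome is not reported here. Exact permutation tests and correlations were run in Python 3.11.15. Named were all members, Lhx5, the 2 genes of smallest p in each list and the 10 genes most like the mesenchyme mean, a collection made with earlier results of these data known, as were the members and lists. Erbb3, Fabp7, Nes, Cdh2, Foxb1, Nkx2-1, Sim1, Mitf, Sox9, Pax3, Pax7 and Crabp1 were named after their values were seen.

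Replicate numbers did not pair the arrays. Alternatives were other normalisations, filters, weights and tests, embryo sex (read from Xist and Y-linked genes), the replicate number as a block and each array left out. The number of arrays limits the precision.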

Additional observations from a re-analysis of the deposited data

How the results depend on the processing

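The number of members called was 0 in the fit with the term for KO replicates 1 to 10 and under every alternative that kept the term or used KO replicates 11 to 13 alone, and 2 with genotype alone (Foxc2 and Pdgfrb). Of 369 member differences under the alternatives, 350 kept their sign and their side of the threshold. Many of these could not change in size, since leaving out any of KO replicates 1 to 10, or the term itself, keeps the KO mean where it was. The count is therefore no measure of stability. The median difference of the 8 mesenchyme genes stayed above 0 throughout, from 0.08 (without KO replicate 11) to 0.29 (without KO replicate 13) over the single arrays left out. Differences near 0 turned. Twist1 was -0.041 by the rank-sum test (difference of medians) and -0.015 without WT replicates 1 and 11, and ran from -0.10 (without KO replicate 11) to 0.17 with each array left out. Prrx1 was -0.057 without WT replicates 1 and 11, and ran from -0.053 (without KO replicate 11) to 0.23, being also below 0 without KO replicate 12 or WT replicate 11. Foxd3 was 0.031 with array weights and ran from -0.19 to 0.081, turning positive without KO replicate 11 or 13 or WT replicate 4, 5 or 10. Sox10 was -0.068 without WT replicates 1 and 11, and ran from -0.30 (without KO replicate 12) to 0.39, being also below 0 without WT replicate 1. The cause was not tested.

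Same-numbered KO and WT arrays correlated at -0.33 to 0.43 after removal of group means, over 0.1 for 4 of 12 numbers, and 0 arrays correlated best with their own number. With the replicate block beside the term, which leaves numbers 11 and 12 to estimate the difference, the mesenchyme median was 0.68, Foxd3 was 0.20 and 0 clusters were called. With the replicate block and genotype alone 2 members were called.

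The median r over all 45 member pairs was 0.652 in KO replicates 1 to 10 and 0.632 in WT, and 0.446 to 0.704 and 0.573 to 0.682 with each array left out. Without the lowest and highest array by mesenchyme mean it was 0.414 in KO replicates 1 to 10 and 0.495 in WT, and without the 2 farthest 0.414 and 0.386. These 2 alternatives, and leaving out WT replicates 1 and 11, were chosen after seeing the data. List medians with genotype alone, or without one of KO replicates 1 to 10, likewise could hardly move. Of 338 list medians under the alternatives, these included, 337 moved by less than 1 SD of the list mean over WT arrays. The exception was pericyte and smooth muscle (0.40 without KO replicate 13). The number of clusters called in all was 7, and 0 to 26 with each array left out. It was 30 with array weights, 12 with arrays centred on their medians and 1 with quantile normalization repeated. With genotype alone it was 4825. By the rank-sum test it was 0, which says little for the reason given above.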

Other observations

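Likeness to the mesenchyme mean reached beyond the named genes. Of 10179 genes, 682 (6.7%) had an r of at least 0.5 with it in both sets. Among them 82.3% had a KO minus WT difference above 0, with a median of 0.10, and 0 passed the test. An unadjusted p below 0.05 in limma, in either direction, was found for 56 of the 682. Of all clusters, 6.20% had such a p and were higher in KO, so the 56 are not read as a result. The mesenchyme mean was itself higher in KO replicates 11 to 13 than in WT. The 82.3% therefore follows in part from how the genes were picked and carries no test.

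Other genes went the opposite way from array to array. Chosen after their values were seen, the 5 most opposed to the mesenchyme mean in both sets were Plekha7, an adherens junction gene, with r of -0.828 in KO replicates 1 to 10 and -0.802 in WT, Stum (-0.778 and -0.793), Trim37 (-0.751 and -0.835), Galnt16 (-0.733 and -0.778) and Satb1, a chromatin organiser (-0.720 and -0.820). Their KO minus WT differences were -0.20 ± 0.10, -0.23 ± 0.20, -0.15 ± 0.08, -0.02 ± 0.08 and -0.02 ± 0.08 (SE) in that order.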
